A study of Homo sapiens with 8 samples.

Results

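The chromosome 1q window examined here holds the chromatin peaks that surround a super-enhancer targeted in Raji cells, a human Burkitt lymphoma B cell line. It was set by position: peaks of the ATAC table on chromosome 1 that start between 182.5 and 202.8 Mb (hg38) were taken, 510 of 70312 in all, or 0.725%. They were ordered by their distance from the interval that the sample labels give for the deletion, 192515157 to 192741754. The annotation names 114 genes for these peaks, and 70 of them have a row in the RNA table.

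The groups were RGS-SE knockout (CRISPR-Cas9) and wild-type Raji cells, each with 2 RNA-seq and 2 ATAC-seq libraries, 8 in all. ATAC-seq counts insertions of a transposase into open chromatin, and each ATAC library was made from about 50000 cells. The labels describe single knockout clones without their number and call the replicates biological, so genotype and clone cannot be told apart. All 8 fixed B cell markers had an RNA row, at 77.0 to 1052 CPM, the mean normalised count scaled to a total of 1000000, while the highest marker was at 3.73 CPM for T and NK cells, 1.17 CPM for myeloid cells and 6.19 CPM for epithelial cells and fibroblasts. These lists also moved with genotype: the B cell markers summed to 3709 CPM in the knockout and 2656 CPM in wild type, with 3 called higher and 1 lower. T and NK markers summed to 0.618 CPM in the knockout and 7.33 CPM in wild type, with 1 called lower, and epithelial and fibroblast markers to 8.54 CPM in the knockout and 3.97 CPM in wild type, with 1 called higher. Their part in the results was not tested.

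Enhancers are stretches of DNA that bind transcription factors and can change the output of promoters at a distance, and a super-enhancer is a dense cluster of them, often close to genes that define a cell type. Open chromatin in such stretches lets the transposase in and gives an ATAC peak. The RGS genes near the interval encode regulators of G protein signalling, which speed the shut-off of G proteins downstream of chemokine and other receptors, and RGS1 and RGS13 are known from activated and germinal centre B cells.

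The deposited tables give 1 DESeq2 result per peak or gene and no value per library. The values below are therefore normalised counts fitted per genotype from the authors' mean and fold change, with the authors' log2 fold change (knockout over wild type), its standard error (SE) and the adjusted p of their two-sided Wald test. A peak or gene is called higher or lower at an adjusted p under 0.05. Which genotype stands on top of the fold change is not stated in them. A positive value was read as higher in the knockout, since 1 peak of the targeted interval had almost no reads in one genotype and that genotype was taken to be the knockout. That peak bears on the ATAC values only, and the RNA values were assumed to have the same coding. Under the opposite coding of an assay, every direction given here for that assay would turn. The depth of each library is unknown, and the mean normalised counts summed to 1.99e+07 over peaks and 3.28e+07 over genes.

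The sequences below show the places on which the results turn: the peak lost inside the interval, the largest fall outside the interval and the largest rise among the named peaks, each as the central 300 bases on the plus strand of hg38, followed by the promoters of 2 genes whose RNA rose, from RefSeq (GRCh38.p14, plus strand). Capitals in the PHLDA3 peak mark a match to the ETS-IRF composite motif, which binds a pair of B cell factor families. Capitals in the RGS1 promoter mark a match to the NF-kB motif, and in the RNF2 promoter 4 GC boxes, of which a pair overlaps, and an E-box. No fixed motif matched in the lost peak or in the LINC01032 peak.
Lost peak of the interval, chr1:192609319-192609618: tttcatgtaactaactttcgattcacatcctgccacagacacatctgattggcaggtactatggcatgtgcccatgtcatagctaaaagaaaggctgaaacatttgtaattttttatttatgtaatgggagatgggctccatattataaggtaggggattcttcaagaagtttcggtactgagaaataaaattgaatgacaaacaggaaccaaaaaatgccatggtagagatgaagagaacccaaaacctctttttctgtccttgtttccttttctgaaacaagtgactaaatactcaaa
Fall in the intron of LINC01032, chr1:192941958-192942257: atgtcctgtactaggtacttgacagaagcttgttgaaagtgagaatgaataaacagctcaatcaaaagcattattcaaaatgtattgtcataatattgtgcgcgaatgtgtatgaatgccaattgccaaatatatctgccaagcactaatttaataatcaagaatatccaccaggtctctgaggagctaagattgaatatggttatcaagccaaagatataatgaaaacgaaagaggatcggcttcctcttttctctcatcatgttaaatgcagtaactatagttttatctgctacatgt
Rise near PHLDA3, chr1:201456809-201457108: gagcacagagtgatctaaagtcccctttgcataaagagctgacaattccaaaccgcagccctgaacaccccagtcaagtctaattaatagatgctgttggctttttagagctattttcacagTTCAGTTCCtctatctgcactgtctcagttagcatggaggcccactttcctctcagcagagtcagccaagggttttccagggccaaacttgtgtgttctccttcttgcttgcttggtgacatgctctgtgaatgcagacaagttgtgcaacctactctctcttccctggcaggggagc
RGS1 promoter, chr1:192575523-192575822: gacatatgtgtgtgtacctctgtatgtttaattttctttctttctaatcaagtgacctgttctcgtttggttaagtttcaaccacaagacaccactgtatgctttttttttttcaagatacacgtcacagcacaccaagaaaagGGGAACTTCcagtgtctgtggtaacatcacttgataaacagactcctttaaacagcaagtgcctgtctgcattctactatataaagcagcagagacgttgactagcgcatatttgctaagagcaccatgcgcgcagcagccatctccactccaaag
RNF2 promoter, chr1:185045308-185045607: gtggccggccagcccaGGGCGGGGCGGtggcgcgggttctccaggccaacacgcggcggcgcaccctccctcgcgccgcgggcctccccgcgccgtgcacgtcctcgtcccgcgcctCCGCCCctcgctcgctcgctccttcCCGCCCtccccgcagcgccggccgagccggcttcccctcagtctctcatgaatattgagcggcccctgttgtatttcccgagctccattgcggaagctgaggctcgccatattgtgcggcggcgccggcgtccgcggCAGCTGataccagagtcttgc

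Across the whole window, open chromatin moved in both directions. Of the 510 peaks, 92 were higher in the knockout (18%), 74 were lower (14.5%) and 344 were not past the threshold. Over all 70312 peaks of the table, 35.9% were called, 20.4% higher and 15.5% lower, so the window's 32.5% was near that background, and the 6452 other peaks of chromosome 1 had 30.9% called. The median log2 fold change was -0.03 in the window and -0.01 over all peaks. Summed over the window, fitted counts in the knockout came to 99.3% of those in wild type. Changes of at least 1 log2 unit among called peaks numbered 55 higher and 29 lower in the window, and 7744 higher and 4072 lower over all peaks.

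Calls were counted by the height and place of the peak, without a test of the difference. Among the 241 window peaks whose mean normalised count reached 100, 42 were higher and 49 lower, and among the 269 below that mean 50 were higher and 25 lower. Over all peaks, those with a mean of at least 100 were higher in 20.9% and lower in 18.8% of cases, and those below it in 19.8% and 11.8%. Promoter peaks, 36 in the window, had 4 higher (11.1%) and 6 lower (16.7%), against 14.2% and 20% of all promoter peaks. Intergenic peaks numbered 218, with 41 higher (18.8%) and 30 lower (13.8%), against 22.9% and 13.9% of all intergenic peaks. Intron peaks numbered 227, with 40 higher (17.6%) and 35 lower (15.4%), against 20.6% and 15.6% of all intron peaks.

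The last peak inside the window, in an intron of KDM5B, had a log2 fold change of 0.57 in the authors' deposited table. Just outside, a peak of RGSL1 had -0.66 before the window and a promoter peak of the noncoding gene PCAT6 had 3.40 after it, both past the threshold in the authors' deposited table.

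**Figure D1:**
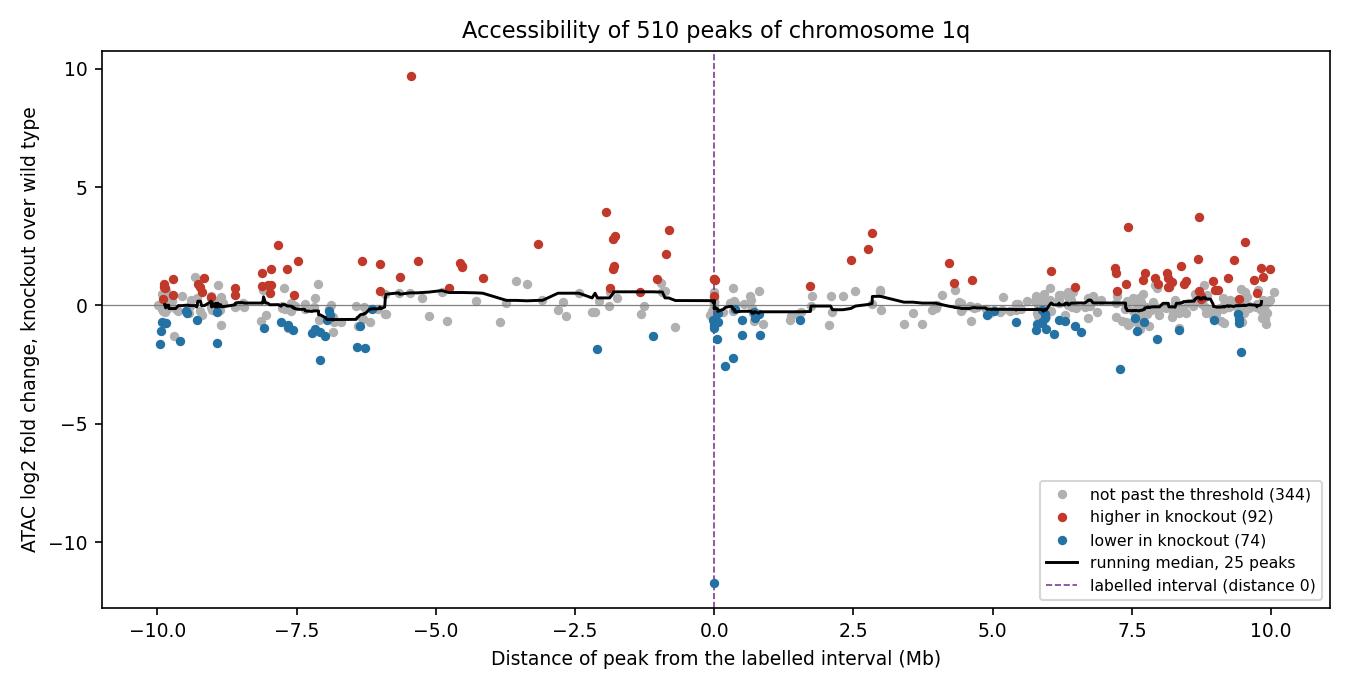
Each point is 1 of the 510 peaks, placed by its distance in Mb from the labelled interval (x axis, negative before it) and by its ATAC log2 fold change, knockout over wild type (y axis). Red points (92) were higher in the knockout, blue points (74) lower and gray points (344) not past the threshold. The black line is the median of 25 neighbouring peaks, which lay between -0.62 and 0.63. The lowest point is the lost peak of the interval at -11.71.

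The labelled interval spans 226.598 kb and contains both RGS1 and RGS13. It held 18 peaks, and 1 of them was lost in the knockout. That peak, at chr1:192609103-192609836, had a fitted normalised count of 0.186 in the knockout and 622 in wild type, where it was the third highest of the interval. Its log2 fold change was -11.71 (SE 1.45, DESeq2 adjusted p 2.16e-14) by the authors' deposited table. A fitted fold of this size is no bound, since it varies with the fit where a genotype has almost no reads, as it does for LINC01036, LINC01720 and INAVA below. It is 734 bp wide, 0.324% of the interval, and sits between the genes, 29079 bp after RGS1 ends and 26302 bp before RGS13 starts, on a copy of the old LTR element MLT1N2. The 49 MLT1N2 peaks of the whole table included 10 higher and 8 lower.

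The other 17 peaks of the interval kept reads in the libraries labelled knockout, which goes against a deletion of the whole labelled interval. The extent of the deletion was not measured here, and knockout below means these libraries as labelled. The summed fitted count of the 17 peaks was 97.2% of wild type, with log2 fold changes from -0.97 to 1.14 in the authors' deposited table. The closest neighbours, which kept reads, were 3430 and 5174 bp away from the lost peak. Only the near-complete loss of reads was thus bounded, by a span of 9338 bp. A partial loss beyond that span was not tested. The left neighbour, at 192604963, fell to a fitted count of 78.2 in the knockout, against 153 in wild type (log2 fold change -0.97, SE 0.25, DESeq2 adjusted p 0.000514, authors' deposited table). The right neighbour, at 192615011, had 43.3 in the knockout and 68.5 in wild type and was not past the threshold.

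The interval's other called peaks went in both directions. Upstream of RGS1, 3 peaks rose. The peak at 192544849 reached a fitted count of 242 in the knockout, against 110 in wild type, with a log2 fold change of 1.14 (SE 0.20, DESeq2 adjusted p 1.57e-07, authors' deposited table). The peak at 192552710 had 187 in the knockout and 86.9 in wild type (1.11, SE 0.23, adjusted p 1.44e-05, authors' deposited table). Between them, the peak at 192550689 had 356 in the knockout and 267 in wild type, a smaller rise of 0.42 (SE 0.15, adjusted p 0.0200, authors' deposited table). Upstream of RGS13, the tallest wild-type peak of the interval, at 192626271, fell to 593 in the knockout, against 1061 in wild type (-0.84, SE 0.09, adjusted p 1.76e-18, authors' deposited table). In a test against a 1.5-fold change, the lost peak was the 1 call left in the interval, and with the statistics scaled as described for the flank below, it and the peak at 192626271 were left.

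The promoters inside the interval stayed short of the threshold. The RGS1 promoter peak had a fitted count of 562 in the knockout and 618 in wild type, with a log2 fold change of -0.14 (SE 0.12, DESeq2 adjusted p 0.381, authors' deposited table). The RGS13 promoter peak had 198 in the knockout and 204 in wild type (-0.04, SE 0.18, adjusted p 0.888, authors' deposited table).

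**Figure D2:**
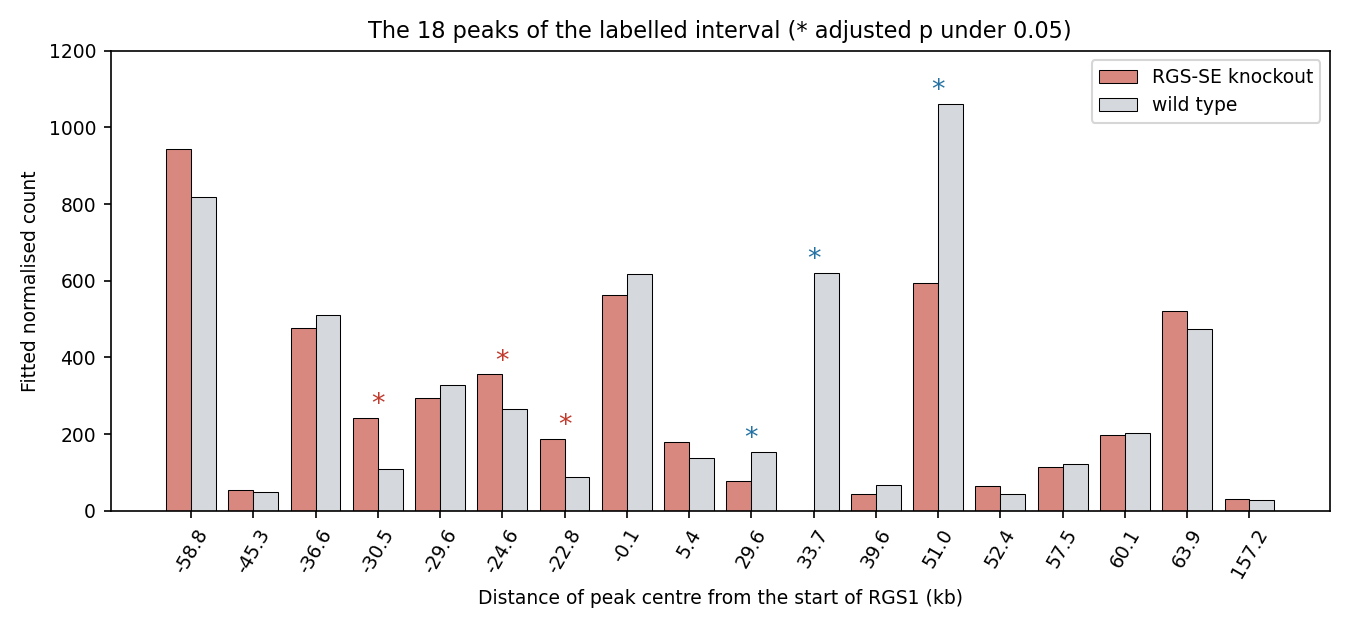
Bars give the fitted normalised count of each of the 18 peaks of the labelled interval (y axis), with RGS-SE knockout at left (red) and wild type at right (gray) of each pair. The x axis gives each peak centre's distance in kb from the start of RGS1. Asterisks mark an adjusted p under 0.05, red for higher and blue for lower. The lost peak has 0.186 in the knockout and 622 in wild type, while the others keep bars in both genotypes.

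RNA from the 2 genes of the interval differed. RGS1, which dampens chemokine receptor signalling, rose to a fitted normalised count of 4821 in the knockout, against 430 in wild type (log2 fold change 3.49, SE 0.18, DESeq2 adjusted p 7.54e-79, authors' deposited table). It rose without a called change at its promoter peak. Among the RNA of all 17013 tested genes, 19.2% were called, 9.89% higher and 9.28% lower. RGS13, a small RGS protein of germinal centre B cells, had 5583 in the knockout and 6396 in wild type (-0.20, SE 0.22, adjusted p 0.628, authors' deposited table). Per kb of exon, the mean count over both genotypes was 644 for RGS1 and 1010.4 for RGS13. In bulk RNA, a change in the number of cells that express a gene and a change per cell cannot be told apart.

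A long noncoding RNA, ENSG00000289995, starts inside the lost peak. It is annotated on the plus strand at 192609359 to 192634544 and is not named for any peak of the table. Its fitted count was 0.172 in the knockout and 18.1 in wild type, with a log2 fold change of -6.72 (SE 2.28, DESeq2 adjusted p 0.0211, authors' deposited table). Its level was 0.278 CPM. The call for this RNA ended when the test was made against a 1.5-fold change (adjusted p 0.140) and with scaled statistics (adjusted p 0.556).

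Beyond the interval, the flank toward RGS2 lost accessibility at several places. Within 1 Mb after the interval, 12 of 29 peaks were lower in the knockout (41.4%) and 1 was higher (3.45%). Over all peaks, 15.5% were lower and 20.4% higher. The 29 peaks had a median log2 fold change of -0.27 and a summed fitted count at 86.1% of wild type. Before the interval, 10 peaks lay within 1 Mb, 2 higher and 1 lower, and their median was 0.39. The difference between the flanks was not tested. Counted together, 3 of the 39 peaks within 1 Mb were higher (7.69%) and 13 lower (33.3%). With the Wald statistics divided by their spread over the whole table, 2 of the 29 peaks after the interval stayed lower, and 2 did so in a test against a 1.5-fold change. Over all peaks, 3.35% and 8.75% were called in either direction under these 2 settings.

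RGS2, the next family member along the chromosome, is known as a brake on signalling through the Gq class of G proteins. All 3 of its peaks fell. Its promoter peak had a fitted count of 1105 in the knockout and 1392 in wild type (log2 fold change -0.33, SE 0.08, DESeq2 adjusted p 0.000115, authors' deposited table). The 2 peaks upstream of it fell by 0.68 (SE 0.27, adjusted p 0.0369) and by 1.41 log2 units (SE 0.43, adjusted p 0.00430, authors' deposited table). RGS2 RNA had 104 in the knockout and 175 in wild type and was not past the threshold (-0.75, SE 0.43, adjusted p 0.233, authors' deposited table).

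The deepest falls of this flank were away from promoters. The peak in the intron of the noncoding gene LINC01032, 199.8 kb after the interval, fell to a fitted count of 49.1 in the knockout, against 292 in wild type (log2 fold change -2.58, SE 0.23, DESeq2 adjusted p 2.29e-27, authors' deposited table). At 341.6 kb, a peak in an intron of another gene was assigned to GLRX2, a mitochondrial glutaredoxin, and lies outside its annotated body. It had 43.5 in the knockout and 205 in wild type (-2.24, SE 0.26, adjusted p 2.58e-16, authors' deposited table). Both of these peaks stayed past the threshold in a test against a 1.5-fold change. Near the far end of CDC73, which encodes a subunit of the PAF1 transcription elongation complex, 2 intron peaks assigned to B3GALT2 had -1.24 and -0.63 in the authors' deposited table. The CDC73 peak over its 5′ UTR changed little in size but was called, at 1756 in the knockout and 1962 in wild type (-0.16, SE 0.06, adjusted p 0.0279, authors' deposited table). LINC01031, the noncoding gene that takes most peaks further out, had 5 of 21 lower and 1 higher. Over all peaks, 15.5% were lower and 20.4% higher.

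RNA of the protein-coding genes in this flank did not pass the threshold. GLRX2 had a log2 fold change of 0.45 (SE 0.27, DESeq2 adjusted p 0.253), CDC73 0.20 (SE 0.16, adjusted p 0.446) and UCHL5, a deubiquitinase of the proteasome and of the INO80 complex, -0.17 (SE 0.19, adjusted p 0.607), all in the authors' deposited table. The promoter peak of UCHL5 had 0.07 in the same table. B3GALT2 and LINC01031 were close to absent, without an adjusted p, as was RGS18, which lies before the interval.

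On the other flank the nearest peaks were few and low. Rises stood out at 2 places, a peak near RGS18 with a fitted count of 75.6 in the knockout and 8.37 in wild type, and a peak near LINC01680 with 67.5 in the knockout and 14.8 in wild type. Their log2 fold changes were 3.17 (SE 0.49, DESeq2 adjusted p 1.81e-09) and 2.19 (SE 0.44, adjusted p 5.42e-06, authors' deposited table). The 1 fall, -0.62 (SE 0.24, adjusted p 0.0283, authors' deposited table), was 24.9 kb before the interval.

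**Figure D3:**
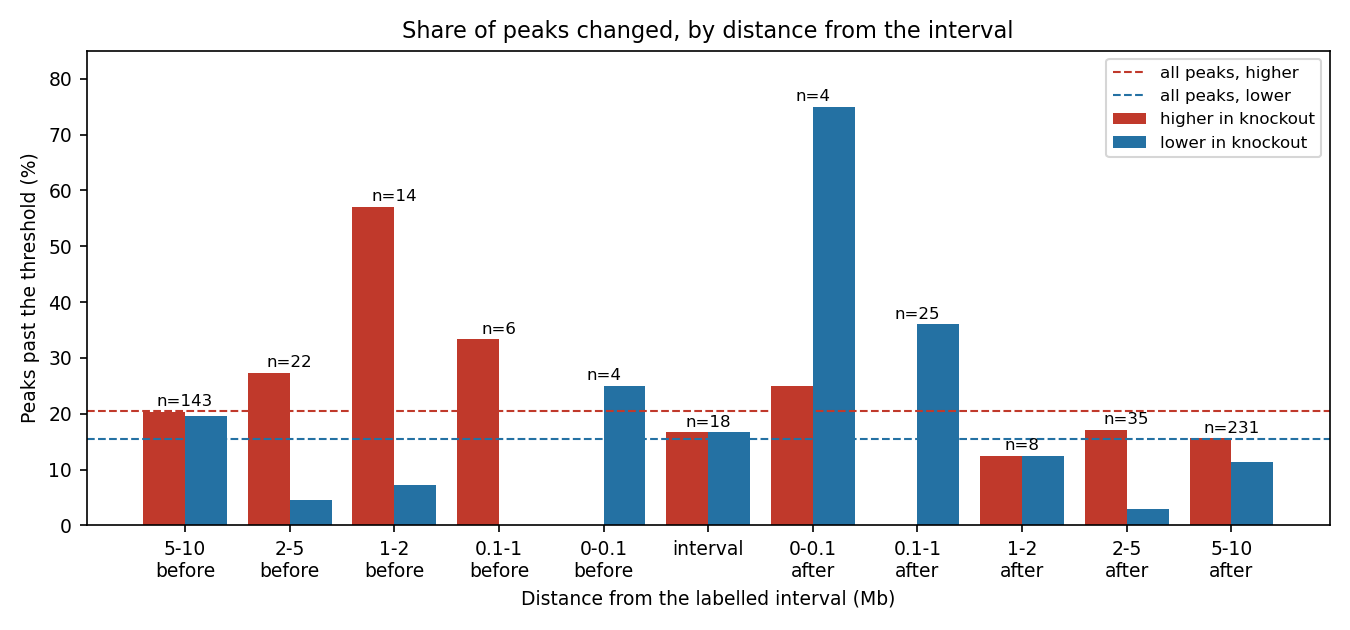
Bars give the share of peaks past the threshold in each distance class (x axis, in Mb before or after the labelled interval), red for peaks higher and blue for peaks lower in the knockout, with the number of peaks above. Dashed lines mark the shares over all peaks, 20.4% higher and 15.5% lower. Rises lead from 0.1 to 5 Mb before the interval and falls lead within 1 Mb after it; several classes hold fewer than 10 peaks.

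Further out, the share called ran from 20% to 64.3% over the classes of distance, without a test between them. From 1 to 2 Mb before the interval, 8 of 14 peaks rose and 1 fell, and the median log2 fold change was 0.66. From 1 to 2 Mb after it, 1 of 8 was higher and 1 lower. From 2 to 5 Mb before, 6 of 22 were higher and 1 lower, and from 2 to 5 Mb after, 6 of 35 were higher and 1 lower. From 5 to 10 Mb, where the window is densest, both directions were more even, with 29 higher and 28 lower of 143 before the interval and 36 higher and 26 lower of 231 after it. The running median of 25 peaks was highest, 0.63, over 186.512 to 189.352 Mb, where 11 of the 25 peaks were higher, and lowest, -0.62, just before that, over 185.346 to 186.326 Mb, where 10 of the 25 were lower and 1 was higher. Runs of 25 peaks on all chromosomes had a 5th percentile of -0.42 and a 95th of 0.64, with extremes of -1.61 and 4.22. The window's runs had a 5th percentile of -0.33 and a 95th of 0.52. The runs of all chromosomes include those of the window, so the window's extremes could not lie outside theirs. The window's lowest run lay below the 5th percentile of all chromosomes, and its highest lay just under the 95th.

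Where peaks were sparse, more of them rose than fell. Steps of 1 Mb with fewer than 15 peaks held 75 peaks, of which 23 were higher (30.7%) and 3 lower (4%), with a median log2 fold change of 0.39. The higher ones numbered 5 of 14 with a mean of at least 100, 13 of 75 in a test against a 1.5-fold change and 2 of 75 with scaled statistics. The other steps held 435 peaks, 69 higher and 71 lower. Sparse steps elsewhere in the genome, with 8145 peaks, had 24.6% higher and 12.5% lower. The sparse peaks of the window were low, with a median mean normalised count of 40.9 against 108 in its other steps, and their part in the direction was not tested. Endogenous retroviral LTR elements lay at the centre of 9 of the 23 sparse peaks that were higher, 2 of the 3 lower and 18 of the 49 not called. In sparse steps outside the window they lay at 22.0% of higher, 11.1% of lower and 15.3% of uncalled peaks.

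In this stretch the noncoding genes LINC01036 and LINC01720 rose in RNA and each had peaks that rose. The peak with the largest rise of the window, beside LINC01036, had a fitted count of 149 in the knockout and 0.180 in wild type (log2 fold change 9.69, SE 1.47, DESeq2 adjusted p 7.15e-10, authors' deposited table). It lies on an LTR12C element, a retroviral promoter type with many copies in the genome, so reads can be shared between copies. Of the 13 LTR12C peaks in the whole table, 4 were higher and 1 lower. LINC01036 RNA had 33.1 in the knockout and 0.189 in wild type (7.45, SE 1.87, adjusted p 0.000829, authors' deposited table).

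LINC01720, another noncoding gene, had 6 of its 9 peaks higher and 0 lower by the DESeq2 Wald test, and also 0 lower at an unadjusted p under 0.05. Its highest peak, at 190572523, had a fitted count of 59.4 in the knockout and 3.87 in wild type (log2 fold change 3.94, SE 0.65, adjusted p 2.36e-08, authors' deposited table). LINC01720 RNA had 21.2 in the knockout and 0.189 in wild type (6.81, SE 2.07, adjusted p 0.00812, authors' deposited table). LINC01037, with no RNA row used here, had 5 of 12 peaks higher and 0 lower, or 1 lower at an unadjusted p under 0.05. Over all peaks, 20.4% were higher and 15.5% lower. On the far side of the interval, LINC01724 had 3 of 14 peaks higher, near that share. Its peak at 195195171 reached 318 in the knockout, against 84.3 in wild type, and the one at 195495694 reached 232 in the knockout, against 44.7 in wild type.

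RNA of the window's genes was tested for 60 of the 70 with a row. By the DESeq2 Wald test 9 were higher (15%) and 6 lower (10%), against 9.89% and 9.28% of all tested genes, and 10 had no adjusted p. The median log2 fold change was -0.06 over the 60 genes and 0.02 over all tested genes. The genes that rose spanned a wide range of size, and those that fell did so by less than 1 log2 unit apart from RGS8. RGS1, RNF2, RGL1 and LINC01036 were among the 5 genes that kept their calls in a test against a 1.5-fold change, and RGS1 and RNF2 were among the 3 that did so with scaled statistics. Every fall ended under both.

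The RGS list, 7 genes, had 5 tested members, 1 higher and 2 lower, with a median log2 fold change of -0.74. Of all tested genes, 9.89% were higher and 9.28% lower. RGS16, which is induced in activated lymphocytes, fell to a fitted count of 923 in the knockout, against 1539 in wild type (-0.74, SE 0.20, DESeq2 adjusted p 0.00267, authors' deposited table). Its promoter peak was not called, at 1051 in the knockout and 1129 in wild type. RGS8, best known from neurons, fell to 3.87 in the knockout, against 38.7 in wild type (-3.32, SE 1.20, adjusted p 0.0337, authors' deposited table), and its promoter peak fell as well, to 87.1 in the knockout, against 147 in wild type. RGS genes of the window thus changed in both directions, and RGS16 and RGS8 lie close to 10 Mb from the interval.

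Immune genes gave 2 rises and 0 falls among 11 tested by the DESeq2 Wald test, with 2 falls at an unadjusted p under 0.05. The share called, 18.2%, was near the 19.2% of all tested genes. INAVA, an innate immunity activator, rose to a fitted count of 15 in the knockout, against 0.188 in wild type (log2 fold change 6.32, SE 2.29, adjusted p 0.0338, authors' deposited table), and all 3 of its peaks rose. PTPRC, which encodes the leukocyte phosphatase CD45, had 14774 in the knockout and 17194 in wild type and was not called (-0.22, SE 0.16, adjusted p 0.401, authors' deposited table). Around PTPRC 6 of 17 peaks were lower and 0 higher, or 1 higher at an unadjusted p under 0.05. The shares over all peaks were 15.5% lower and 20.4% higher. The most reduced PTPRC peak, in an intron, had 133 in the knockout and 266 in wild type.

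Chromatin and transcription genes gave 2 rises and 0 falls among 10 tested, with 1 fall at an unadjusted p under 0.05. The share called, 20%, was near the 19.2% of all tested genes. RNF2, the ubiquitin ligase of Polycomb repressive complex 1, rose to a fitted count of 452 in the knockout, against 116 in wild type (log2 fold change 1.97, SE 0.34, DESeq2 adjusted p 1.64e-07, authors' deposited table). The 1 peak assigned to it, which covers its annotated start, rose by a like amount, to 304 in the knockout, against 82.4 in wild type (1.88, SE 0.20, adjusted p 9.58e-19, authors' deposited table). ZBTB41, a zinc finger protein, had 1768 in the knockout and 1077 in wild type (0.72, SE 0.21, adjusted p 0.00560, authors' deposited table), and neither of its 2 peaks was called.

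The remaining lists held mostly uncalled genes, and of all tested genes 9.89% were called higher and 9.28% lower. Cell division genes fell in 2 of 7 cases and rose in 0, also at an unadjusted p under 0.05, with a median log2 fold change of -0.15. CAMSAP2, which binds microtubule minus ends, had 1480 in the knockout and 2461 in wild type (-0.73, SE 0.18, DESeq2 adjusted p 0.000463, authors' deposited table), and KIF14, a kinesin of cytokinesis, had 1829 in the knockout and 2699 in wild type (-0.56, SE 0.18, adjusted p 0.0129, authors' deposited table). Of 10 protein, redox and mitochondrial genes, 1 fell, the aminopeptidase gene RNPEP, at 833 in the knockout and 1560 in wild type (-0.91, SE 0.20, adjusted p 6.56e-05, authors' deposited table). Of 4 tested muscle and matrix genes, 1 fell, CSRP1, which encodes a LIM domain protein, at 3007 in the knockout and 4368 in wild type (-0.54, SE 0.16, adjusted p 0.00829, authors' deposited table). None of 7 RNA processing genes passed the DESeq2 Wald test, nor did any at an unadjusted p under 0.05, and the smallest adjusted p was that of TSEN15, a tRNA splicing endonuclease subunit, at 0.293.

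Among genes of no list, RGL1 and NPL rose. RGL1, which encodes an exchange factor for the GTPase Ral, had 155 in the knockout and 30.0 in wild type (log2 fold change 2.37, SE 0.53, DESeq2 adjusted p 0.000117, authors' deposited table), with 2 of 3 peaks higher. NPL, which encodes a sialic acid lyase, had 346 in the knockout and 148 in wild type (1.22, SE 0.34, adjusted p 0.00323, authors' deposited table), with its promoter peak higher at 0.46.

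**Figure D4:**
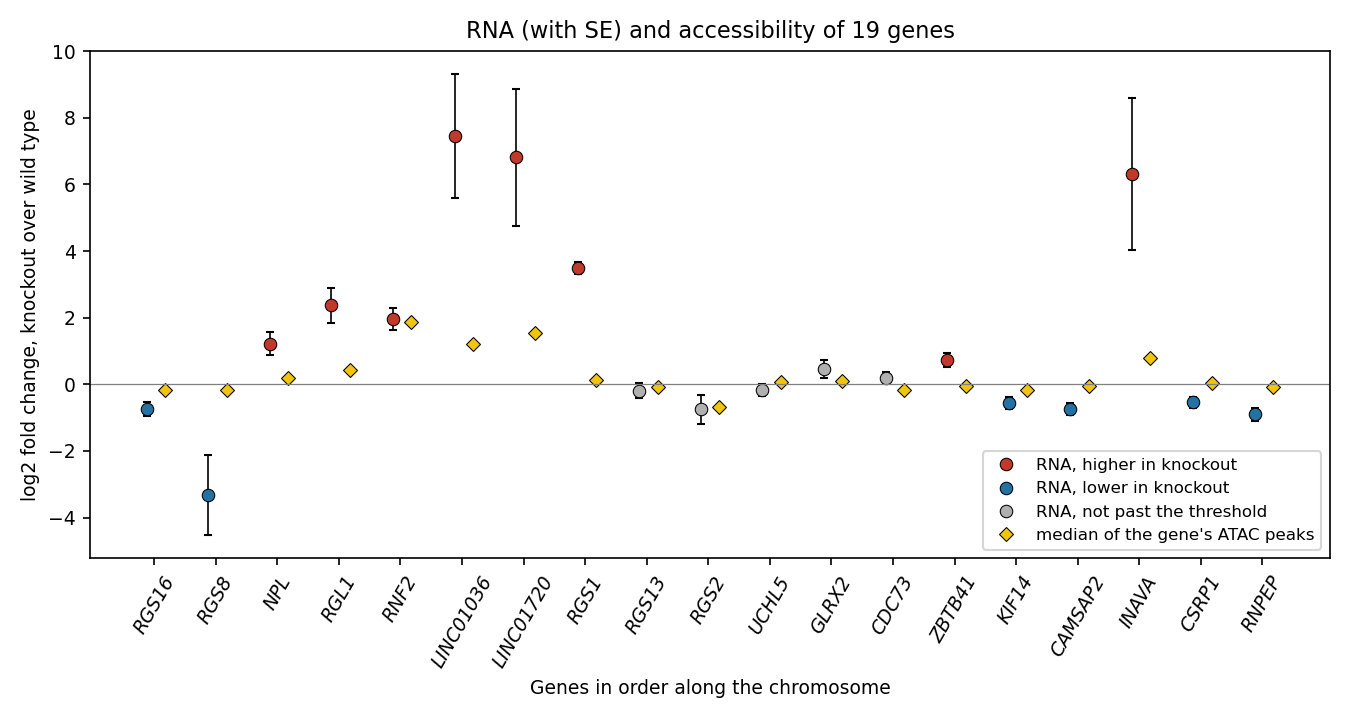
Circles give the RNA log2 fold change, knockout over wild type, of 19 genes in order along the chromosome (x axis), with the SE as bars: the called genes of the window, all but 1, and the tested genes of peaks in the interval or within 1 Mb. Red marks genes higher in the knockout, blue genes lower and gray genes not past the threshold. Yellow diamonds give the median ATAC log2 fold change of each gene's peaks. RGS1 stands at 3.49 with its peaks at 0.13, while RNF2 stands at 1.97 with its peak at 1.88.

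Promoter accessibility and RNA went together for part of these genes. For 31 genes with a promoter peak and an RNA test, the log2 fold changes had a Pearson r of 0.30 and a Spearman rho of 0.37 across genes of the same 4 libraries per assay, and the 6740 genes of the whole table had 0.60 and 0.37. Both assays were past the threshold for 3 genes, among them RGS8, which was lower in both, and NPL, which was higher in both.

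Large changes in open chromatin also lay near genes whose RNA was not called. Near PHLDA3, a p53-responsive inhibitor of AKT, 4 of 6 peaks rose, and the peak at chr1:201456508-201457410 reached a fitted count of 215 in the knockout, against 16.1 in wild type (log2 fold change 3.74, SE 0.33, DESeq2 adjusted p 3.44e-28, authors' deposited table). The promoter peak of TNNI1, which encodes slow skeletal troponin I, rose to 267 in the knockout, against 69.3 in wild type. RNA of PHLDA3 had no adjusted p, and TNNI1 RNA had 18.6 in the knockout and 6.94 in wild type without passing the threshold. RNA levels were low, at 0.0222 CPM for PHLDA3, 0.389 CPM for TNNI1 and 0.166 CPM for NR5A2 below. Unchanged RNA was thus not shown for these genes. Other rises among the named peaks were an LGR6 intron peak assigned to UBE2T, at 259 in the knockout and 40.5 in wild type, a peak near NR5A2 at 336 in the knockout and 111 in wild type, and a peak assigned to EDEM3 at 273 in the knockout and 94.1 in wild type. C1orf21 had 6 of 10 peaks higher and 1 lower, while its RNA had 511 in the knockout and 538 in wild type. Over all peaks, 20.4% were higher and 15.5% lower.

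Falls away from the interval were most numerous in the step of 1 Mb from 198 Mb. It had 11 lower (25.6%) and 1 higher of 43 peaks. The step from 185 Mb had 8 lower (38.1%) and 1 higher of 21. Over all peaks, 15.5% were lower and 20.4% higher, and these steps were picked for their falls. In the step from 185 Mb, the peak at 185439573, assigned to the pseudogene GS1-279B7.1, had a fitted count of 60.9 in the knockout and 298 in wild type (log2 fold change -2.29, SE 0.22, DESeq2 adjusted p 1.23e-23, authors' deposited table). A peak near LINC01350 had 169 in the knockout and 419 in wild type, and 4 of the 9 peaks of that gene were lower. Near the start of the window, an intron peak of SHCBP1L had 66.9 in the knockout and 191 in wild type (-1.51, SE 0.43, adjusted p 0.00202, authors' deposited table).

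Short motifs were searched on both strands in the central 200 bases of each peak, as letters and not as bound sites. The NF-kB motif (GGGAANTTC) was in 3.26% of the 92 peaks that rose, 0 of the 74 that fell and 0.581% of the uncalled ones, against 1.47%, 0.743% and 0.894% in the same sets of all peaks. The octamer of POU factors (ATGCAAAT) was in 7.61% of peaks that rose, 5.41% of those that fell and 2.33% of uncalled ones, against 3.58%, 4.30% and 2.84% in the same sets of all peaks. The PU.1-type motif (GAGGAAGT) was in 2.17% of peaks that rose and 9.46% of those that fell, against 3.46% and 5.52% over all peaks. An E-box (CAGCTG) was in 20.7% of peaks that rose and 13.5% of those that fell, against 17.5% and 13.8% over all peaks. The AP-1 motif (TGANTCA) was in 9.78% and 9.46% of the window's sets, against 9.44% and 6.68%. The ETS-IRF composite (GGAANTGAA) was in 5.43% of peaks that rose and 1.35% of those that fell, against 3.43% and 3.45% over all peaks. The GC box (GGGCGG) was in 8.70% and 5.41% of the window's sets, against 11.6% and 15.8%. Part of the CTCF motif (AGGTGGCAG) was in 0 peaks of either set and 2.91% of uncalled ones, against 1.25%, 0.881% and 2.01% of all peaks that rose, fell or were uncalled. These are small counts without a test. In promoters, the NF-kB match printed for RGS1 starts at position 145 from the 5′ end, and 1.20% of 35116 RefSeq promoters hold such a match, while 45.0% hold a GC box and 17.9% an E-box as RNF2 does.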

How the data were processed

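RNA-seq and ATAC-seq of Raji cells were deposited by the authors as DESeq2 results. The submitters' processing notes name STAR, featureCounts, Bowtie2, DESeq2, HOMER and the trimmers Trimmomatic, cutadapt and Trim Galore, with GRCh38 or hg38. The peak caller, strand setting, versions and order of steps were not given in the sources used here. The authors' tables, per the file headers, give a signal (the mean over 4 libraries of size-factor normalised counts), the log2 fold change with its SE, the Wald score, the p-value with its Benjamini-Hochberg value, and the distance to the nearest start site in bp. No column of per-library values exists in them for edgeR, so the authors' DESeq2 Wald test was used, with both genotypes as 2 of 4 libraries in the fitted counts.

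Calls used an adjusted p under 0.05 over the whole table. Peak starts were read as 0-based and are given here as 1-based. Of 6511 promoter peaks, 3947 gave the exact RefSeq start site under that reading, against 1987 if read as 1-based. Genes were placed with GENCODE 44. CPM scales the mean count to the table's sum. Python 3.11.15, pandas 2.3.3, numpy 2.4.6 and scipy 1.17.1 were used. The Wald tests against no change and against a 1.5-fold change were tested on simulated data, while the scaled and centred versions were not.

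Results of the window for some genes and 1 sequence are not reported here, though they stay in the counts. Members and lists were chosen with earlier results of these data known. Named peaks were those of the interval, the 8 highest and 8 lowest called with a mean of at least 110.8, the median of all peaks, and promoter peaks of named genes. Named genes were those of peaks in the interval or within 1 Mb, the 10 highest and 10 lowest called protein-coding genes with at least 1 CPM, and up to 4 per list by adjusted p, or 2 where none passed. Other peaks and genes with values (the LINC01036, LINC01037, LINC01720, LINC01680, LINC01031, RGS18, B3GALT2, C1orf21 and PHLDA3 loci, the flanks of RGS2, the edges, ENSG00000289995) were chosen after their values were seen. Alternatives were a mean of at least 100, an adjusted p under 0.01, a 1.5-fold null, scaled statistics and 2 centrings. P-values measure the spread between the 2 libraries of each genotype.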

Additional observations from a re-analysis of the deposited data

How the results depend on the processing

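No paired analysis was possible because the deposited tables hold no values per library; the replicate block and leaving out each replicate were not run for the same reason. Every direction of the named peaks and genes held under the alternatives that gave a value, and centring changed no count by 1.5 times; centring on the table's median took the interval peak at 192516604 past the threshold. Peaks higher, 92 as deposited, numbered 42 with a mean of at least 100, 61 at an adjusted p under 0.01, 28 against a 1.5-fold null and 10 with scaled statistics. Peaks lower, 74 as deposited, numbered 44, 11 and 6 under the last 3 of these settings. Changed peaks of the interval, 6 as deposited, numbered 1 against the 1.5-fold null and 2 with scaled statistics. Changed peaks within 1 Mb, 16 as deposited, numbered 9 with a mean of at least 100, 9 at 0.01, 4 against the 1.5-fold null and 2 with scaled statistics. Genes higher, 9 as deposited, numbered 5 with a mean of at least 100, 5 against the 1.5-fold null and 3 with scaled statistics. Genes lower, 6 as deposited, numbered 0 against the 1.5-fold null and 0 with scaled statistics, or 1 and 3 at an unadjusted p under 0.05 of the same Wald tests. Scaling divided the statistics by 2.47 for peaks and 1.71 for genes. With a mean of at least 100, 45.7% of the window's calls were upward, against 55.4% as deposited, and 71.8% were against the 1.5-fold null. Over all peaks these shares were 52.4%, 56.8% and 70.7%, so the whole table moved in the same directions. The running median over 75 peaks ran from -0.17 to 0.32. The promoter and RNA correlation was 0.13 for genes with an RNA mean of at least 100, a setting chosen after seeing the data. Of 24 named peaks called, 13 kept the call against the 1.5-fold null, 13 with scaled statistics and 21 at 0.01; of 15 genes, 5, 3 and 12. The cause of these differences was not tested. Library depth is unknown, and the median SE was 0.273 in the window and 0.252 over all peaks.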

Other observations

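Other loci of the window also had several peaks past the threshold, where 20.4% of all peaks were higher and 15.5% lower. PPP1R12B, which encodes a myosin phosphatase subunit, had 4 of 11 peaks higher and 0 lower by the DESeq2 Wald test, or 1 lower at an unadjusted p under 0.05, while its RNA had a fitted count of 1066 in the knockout and 1376 in wild type without passing the threshold. NMNAT2, an NAD synthesis enzyme of neurons, had 3 of 5 peaks higher, from 0.56 to 1.17 log2 units, in the authors' deposited table. NR5A2, a nuclear receptor of liver and pancreas, had 5 of 20 peaks higher and 1 lower, and the lower one, in an intron, had 7.99 in the knockout and 51.8 in wild type. In the stretch assigned to PRG4, 3 of 10 peaks were lower and 1 was higher.

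Window peaks that rose had a median GC content of 47.0% in their central bases, those that fell 42.8% and uncalled ones 45.5%, against 48.5%, 48.0% and 49.0% over all peaks. Peaks that rose lay on LTR elements in 15.2% of cases, those that fell in 8.11% and uncalled ones in 10.8%, against 10.8%, 6.83% and 7.85% over all peaks.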
